A study of Mus musculus with 24 samples.

Results

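GABA is the main inhibitory transmitter of the adult brain, and the genes described here build the machinery that makes, loads, senses, clears and degrades it. The 27 members were listed by gene function: 10 subunits of the GABA-A receptor, 3 rho subunits, both GABA-B receptor subunits, the synthetic enzymes Gad1 and Gad2, the transporters Slc6a11, Slc6a12, Slc6a13 and Slc32a1, the scaffold Gphn, the degrading enzymes Abat and Aldh5a1, and the GABARAP family (Gabarap, Gabarapl1 and Gabarapl2). A CpG belonged to a member when it lay inside the gene or within 2000 bases of it in the GENCODE M21 annotation of mm10. This gave 1025 of the 762137 CpG cytosines analysed, in 26 of the 27 genes, and Gabra6 had none.

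The values came from reduced representation bisulfite sequencing (RRBS), which cuts DNA at CpG-containing sites and reads methylation in the CpG-rich fragments released, of dentate gyrus micro-dissected from single female C57BL/6JRj mice. The groups analysed were 5 Young STD mice aged 1.5 months that spent their last days in standard cages, 7 Aged STD mice aged 14 months kept in standard cages, and 7 Aged ENR mice of the same age that had lived in environmental enrichment, a larger and changing cage with toys, since early adulthood. The labels name no transgene or drug. The tissue holds granule neurons together with interneurons and glia, so a level is an average over cell types, and a change of methylation within cells cannot be told apart from a change in the mixture.

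In the adult hippocampus, GABA-A receptors are pentameric chloride channels, and granule neurons carry both synaptic receptors and extrasynaptic receptors that contain the delta subunit. GABA-B receptors are heterodimers that signal through G proteins. DNA methylation is usually absent from CpG-rich promoters of expressed and many silent genes and high within gene bodies, and the comparisons below ask whether either compartment of the GABA genes differed with age or housing.

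All 8 stretches of sequence printed here are introns whose methylation is described by mouse further on. They are the 3 clusters of smallest p in each of 3 comparisons, less the Gabrb2 promoter cluster, which overlaps untranslated sequence. A cluster is a run of at least 3 CpGs no more than 100 bases apart, printed on the plus strand of GRCm38 from its first to its last CpG, with each CpG in capitals.
Gabra4, chr5:71622829-71622878: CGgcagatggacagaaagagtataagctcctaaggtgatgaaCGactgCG
Gabrg3, chr7:57363901-57363993: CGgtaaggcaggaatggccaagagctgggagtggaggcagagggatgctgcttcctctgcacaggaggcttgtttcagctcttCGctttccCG
Gabbr2, chr4:46698790-46698930: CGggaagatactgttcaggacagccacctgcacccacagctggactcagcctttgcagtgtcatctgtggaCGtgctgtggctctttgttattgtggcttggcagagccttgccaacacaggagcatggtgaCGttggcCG
Gabbr2, chr4:46731747-46731911: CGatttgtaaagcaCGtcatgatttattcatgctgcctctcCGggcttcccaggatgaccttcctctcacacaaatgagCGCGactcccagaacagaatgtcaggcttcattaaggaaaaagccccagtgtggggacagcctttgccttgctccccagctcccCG
Gabbr2, chr4:46819629-46819672: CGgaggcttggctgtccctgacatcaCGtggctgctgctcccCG
Gabbr2, chr4:46924508-46924576: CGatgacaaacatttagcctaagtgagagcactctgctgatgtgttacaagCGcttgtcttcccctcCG
Gabbr2, chr4:46977377-46977415: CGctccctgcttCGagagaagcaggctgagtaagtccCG
Slc32a1, chr2:158612590-158612651: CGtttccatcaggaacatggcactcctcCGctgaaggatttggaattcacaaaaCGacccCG
Each sequence holds 3 to 6 CpGs, so each value by mouse rests on few positions.

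Coverage differed between mice, and the reads behind each percentage are unknown. A mouse had values at 63.8% to 96.2% of the 1025 CpGs, and 117 CpGs were measured in all 19 mice. At the 152 member CpGs with a mean between 20% and 80%, 30.8% of the values were exactly 0% or 100%, against 33.2% over all CpGs of that range. At 9 such positions read on both strands, the strands of a mouse differed by a median of 23.0 points, whereas the means over mice differed by a median of 5.99 points. Single values are thus coarse. Libraries carried numbers of 2 series, with 11 mice in series 27 (3 Young STD and 4 of each aged group) and the other 8 in series 37. Which CpGs a mouse had values at also differed, and the mean Young STD methylation of those CpGs, called the composition index here, was 30.5% to 32.1% in Young STD, 19.5% to 38.0% in Aged STD and 23.4% to 36.2% in Aged ENR mice. Region values were therefore centred by CpG, which can push a level slightly below 0% or above 100%. In the levels described gene by gene before the comparisons, group means over CpGs were not centred. Their order can differ from the order of the tested values.

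Promoters and bodies of the GABA genes stood apart in every group. A promoter was the sequence within 1000 bases of any transcript start of the gene and the body was the rest of the gene. A measured promoter CpG was present in 19 of the 27 members (70.4%, against 68.0% of the 21911 protein-coding genes), a body CpG in 21, and 517 CpGs fell in promoters, 428 in bodies and 80 in flanks. Of the member promoter CpGs, 92.1% were methylated below 10% in Young STD mice, compared with 94.6% in Aged STD and 95.7% in Aged ENR mice. Body CpGs covered the whole range, with 28.0% below 10% and 27.3% above 80% in Young STD mice. Methylation was 2.81% over the 376 CpGs within 250 bases of a start and 53.5% over the 306 CpGs more than 5000 bases away in Young STD mice, where the Aged STD means were 2.58% and 46.4% and the Aged ENR means 2.45% and 49.8%.

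In the 10 members with at least 3 CpGs in both compartments, the body exceeded the promoter by 49.9 points ± 4.43 in the 5 Young STD mice, by 42.1 ± 5.40 in the 7 Aged STD mice and by 46.1 ± 4.82 in the 7 Aged ENR mice (mean ± SD over mice). Over the 7986 other genes with both, the corresponding differences were 47.9, 42.7 and 45.1 points. Promoters of these 10 members averaged 11.7% ± 1.86 (SD), 12.6% ± 1.44 and 12.2% ± 1.50 in the same order, and bodies 61.6% ± 3.27, 54.6% ± 6.38 and 58.4% ± 5.33. The promoter average rests mostly on Gabbr2 and Slc6a13, with 4 promoter CpGs each. They had 87.2% and 15.8% in Young STD and 91.6% and 22.9% in Aged STD mice. The other promoters of these members were at 4.28% or less in Young STD mice. The group ranges of the body average overlapped, since Young STD mice spanned 56.6% to 64.9% and Aged STD mice 43.1% to 61.7%. In 9 of the 10 genes the body was above the promoter in all 3 groups, and Gabbr2 was the exception.

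**Figure D1:**
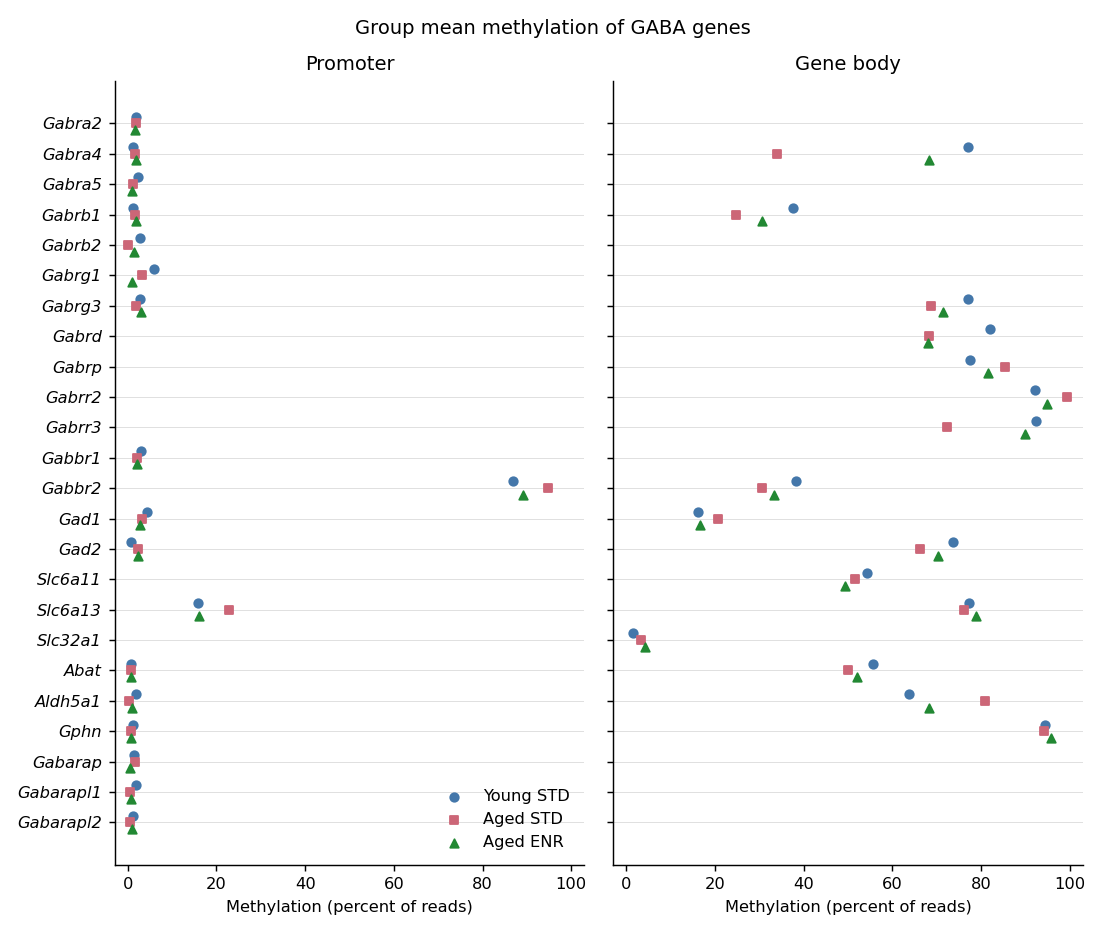
Group mean methylation (percent of reads, x axis) of each member promoter (left) and body (right) with at least 3 measured CpGs. Blue circles are Young STD, red squares Aged STD and green triangles Aged ENR means over CpGs, and most promoters lie near 0% except Slc6a13 and Gabbr2, while bodies run from Slc32a1 near 0% to Gabrr2 and Gphn above 90%.

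Among GABA-A subunits, which form the ligand-gated channel, every measured promoter was close to unmethylated. Gabra2, Gabra4, Gabra5, Gabrb1, Gabrb2, Gabrg1 and Gabrg3 promoters had 1.15% to 5.94% in Young STD mice, on 10 to 64 CpGs each. Gabra4 and Gabrb1, which encode an alpha and a beta subunit, lie head to head on chromosome 5 (71569749 to 71658308 and 71658113 to 72149037) and share the same 11 promoter CpGs, so their promoters are 1 measurement of 1.15% in Young STD, 1.51% in Aged STD and 1.84% in Aged ENR mice. It is listed under both genes in the counts of promoters and regions below. All 64 promoter CpGs of Gabra5 also lie inside another protein-coding gene and cannot be assigned to Gabra5 alone. Bodies were higher, at 37.6% for Gabrb1 (12 CpGs), 77.1% for Gabra4 (5 CpGs), 77.1% for Gabrg3 (29 CpGs), 82.1% for Gabrd (6 CpGs), the delta subunit of extrasynaptic receptors, and 77.6% for Gabrp (3 CpGs) in Young STD mice. The rho subunits, which form a separate class of GABA-gated channels, had few CpGs, with bodies at 92.2% for Gabrr2 (11 CpGs) and 92.5% for Gabrr3 (4 CpGs), and the 2 promoter CpGs of Gabrr3 were at 85.6%.

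The 2 GABA-B subunits differed from each other. Gabbr1, which binds the ligand, was measured almost only at its promoters, with 54 CpGs at 3.07%, 2.03% and 2.09% in Young STD, then Aged STD and then Aged ENR mice. Gabbr2, the subunit that couples to G proteins, held 195 of the 1025 CpGs along chromosome 4 from 46662305 to 46991873. Its 4 promoter CpGs lie at an internal transcript start 268 kb into the gene and were the most methylated member promoter, at 86.9%, 94.8% and 89.0%. No CpG within 1000 bases of its upstream start was measured. The nearest 2 body clusters, 1.80 and 1.31 kb into the gene, were at 8.04% and 0.567% in Young STD mice. By mouse, the internal promoter had 89.4%, 94.9%, 91.7%, 96.4% and 63.8% in Young STD mice, 100%, 100%, 84.0%, 100% and 74.2% in the 5 Aged STD mice with values, and a lowest, median and highest value of 78.1%, 96.4% and 100% in Aged ENR mice. The 3 groups overlapped throughout (Aged STD against Young STD, 4.40 points ± 7.33 SE, limma adjusted p = 0.857, two-sided exact permutation p = 0.611). The sign of this difference depends on Young STD mouse 5, at 63.8%.

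The 27 Gabbr2 body clusters ranged from 0.476% to 94.7% in Young STD mice, with 10 below 20% and 6 above 80%. Levels alternated along the gene. Aged STD means were below Young STD means in 17 of the 27, and Aged ENR means above Aged STD means in 15.

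**Figure D2:**
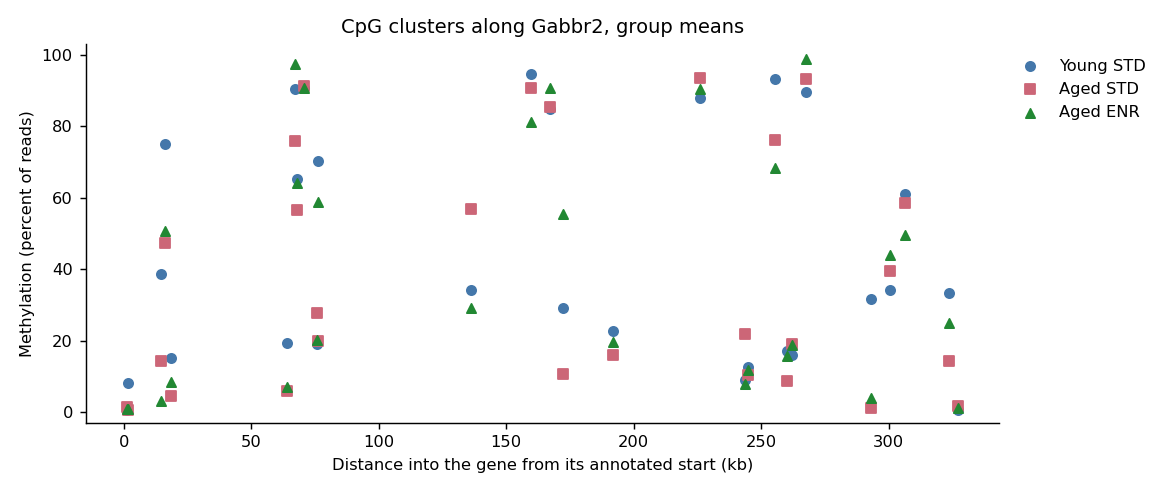
Group mean methylation (percent of reads, y axis) of the CpG clusters of Gabbr2 against the distance into the gene from its annotated start (kb, x axis). Blue circles are Young STD, red squares Aged STD and green triangles Aged ENR means, and low and high clusters follow each other along the gene from 0.476% to 94.7% in Young STD mice.

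The genes for GABA synthesis and vesicle loading mark GABAergic neurons. The measured body CpGs of Gad1 and Slc32a1 were low in methylation and those of Gad2 were not. They lay at unlike distances from a start. Body clusters were 1086 to 5900 bases away in Gad1, 1853 to 4862 in Slc32a1, and 7098 and 53680 in Gad2. The Gad1 cluster furthest away had 25.7% in Young STD, 48.9% in Aged STD and 35.5% in Aged ENR mice. The part of distance in these levels was not tested. Gad1, on chromosome 2 from 70553072 to 70602014, had 59 promoter CpGs at 4.25%, 3.28% and 2.85% and 30 body CpGs at 16.2%, 20.8% and 16.8% in Young STD, then Aged STD and then Aged ENR mice. Gad2, the second glutamate decarboxylase, was at 0.732%, 2.22% and 2.26% over 25 promoter CpGs and at 73.7%, 66.3% and 70.4% over 10 body CpGs. Its 4 flank CpGs were at 8.93%, 8.47% and 8.43%. The body of Slc32a1, the vesicular GABA transporter, was the least methylated member body among those with at least 3 CpGs, with 44 CpGs at 1.43%, 3.23% and 4.17%, and the 12 CpGs in its flanks were at 0.809%, 1.76% and 3.33%. No promoter CpG of Slc32a1 was measured. In these bulk samples fewer cells of a type and altered cells cannot be told apart.

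The plasma membrane transporters were more methylated. Slc6a13 had 4 promoter CpGs at 15.8%, 22.9% and 16% and 22 body CpGs at 77.3%, 76.3% and 78.8% in the same group order. Slc6a11, an astrocytic GABA carrier, had 12 body CpGs at 54.3%, 51.6% and 49.4%. The centred values tested for this body were 53.6%, 47.3% and 51.1%, with the aged groups in the other order. Slc6a12 had only 2 body CpGs, at 80.7%, 100% and 98.9%. For the degrading enzymes, the Abat promoter, on 30 CpGs, had the lowest mean over all 19 mice among promoters with at least 3 CpGs, although other promoters were lower in single groups, and its body stood at 55.7%, 50% and 52.1%, while the Aldh5a1 body had 63.8%, 80.8% and 68.3% on 6 CpGs. By mouse, the Abat promoter had 0.709%, 2.29%, 0.208%, 0.263% and -0.116% in Young STD mice, with lowest, median and highest values of -0.241%, 0.219% and 2.40% in Aged STD and -0.227%, 0.388% and 3.91% in Aged ENR mice. The Abat promoter did not separate any groups (Aged STD against Young STD, -0.0174 points, limma adjusted p = 0.994, exact permutation p = 0.982). Gphn, the scaffold that anchors receptors at inhibitory synapses, was at 1.28% in its promoter and 94.5% in its body in Young STD mice. Promoters of the GABARAP family, ubiquitin-like proteins of receptor trafficking and autophagy, were at 1.33%, 1.90% and 1.19% for Gabarap, Gabarapl1 and Gabarapl2.

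CpG content of the promoters went with coverage. Of the 27 members, 25 matched a RefSeq promoter window (250 bases before to 50 after the start, GRCm38.p6). Members with a measured promoter had a median of 13.5 CpGs in the window and members without one a median of 5.0, whereas all genes had 21.0 and 3.0. Slc6a11 and Slc32a1 had 32 and 17 CpGs in the window but no measured promoter CpG. Gabbr2, with 46 in its richest window, counts as measured only through its 4 CpGs at an internal start. Among the 100 member clusters, the 36 with at least 8 CpGs per 100 bases had a median Young STD level of 1.89%, and the 64 sparser clusters 24.2%.

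To address aging, Aged STD were compared with Young STD mice. Of the 34 member regions tested (18 promoters and 16 bodies), 0 passed an adjusted p of 0.05 in limma, as was true of all 23985 regions (0%). At an unadjusted p under 0.05, 6 member regions were lower and 1 higher, where the shares over all regions were 7.23% lower and 1.36% higher. Member bodies had a median difference of -5.23 points, with 11 of 16 lower, beside -3.84 points and 75.4% lower over all 9997 bodies. Member promoters had a median of -0.557 points, with 12 of 18 lower, beside -0.0858 points and 53.2% lower over all promoters. With the composition index as a covariate, the member body median was -3.05 points and the promoter median -0.296 points. The body median was -3.26 points without Aged STD mouse 7, and the promoter median -0.327 points without Aged STD mouse 6. Over CpGs measured in every mouse they were -2.34 and -0.0959 points, and the promoter median was -0.0147 points with each mouse shifted to a median of 0.

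**Figure D3:**
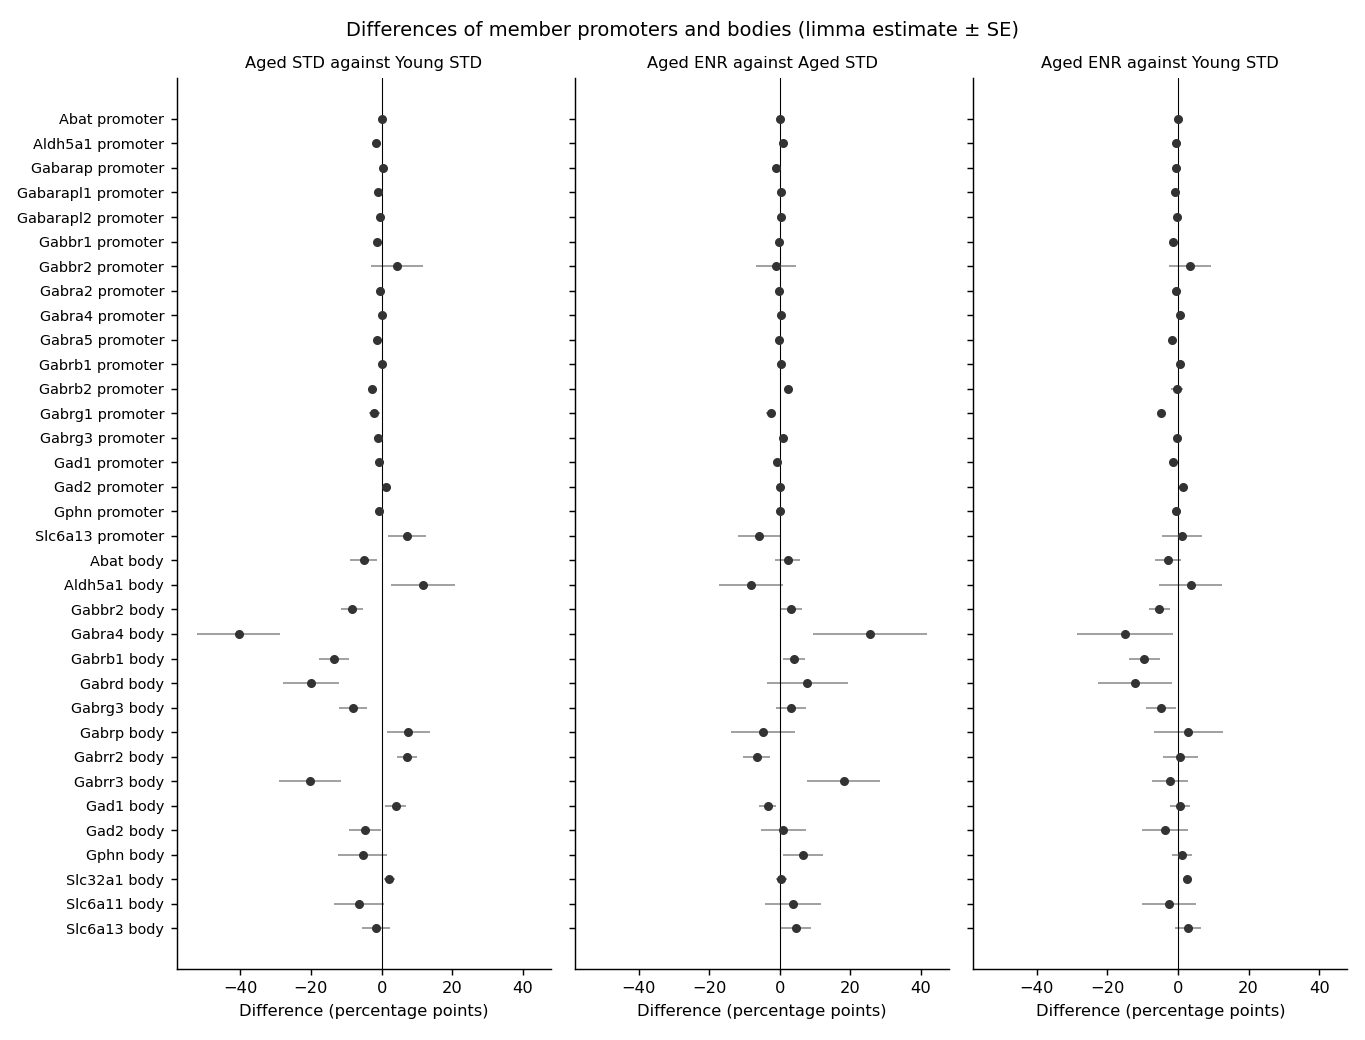
Difference in methylation (percentage points, x axis) of each of the 34 member regions in the 3 comparisons, with the first-named group higher to the right. Points are limma estimates and bars their SE, and promoters cluster at 0 while Gabra4, Gabrb1, Gabrd and Gabrr3 bodies lie lowest in Aged STD against Young STD mice.

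The Gabra4 body gave the smallest p. It stood at 80.7%, 77.1%, 64.4%, 78.2% and 93.6% in Young STD mice and at 27%, 31.5%, 9.73%, 82.8% and 40.7% in the 5 Aged STD mice with values. All but 1 of these Aged STD mice were below every Young STD mouse. The difference was -40.5 points ± 11.7 SE (78.8% ± 10.4 against 38.4% ± 27.3, SD, n = 5 each), with a limma adjusted p of 0.435 and a two-sided exact permutation p of 0.0397. It was -51.3 points within series 27 and -24.2 within series 37, and -31.0 points with the composition index as a covariate.

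The Gabrb1 body followed. Young STD mice had 35.2%, 31.8%, 31.7%, 53.1% and 45.1%, and the lowest, median and highest Aged STD mice had 18.8%, 24.9% and 34.4%. Every Young STD value was above those of 6 of the 7 Aged STD mice (-13.6 points ± 4.25 SE, limma adjusted p = 0.442, exact permutation p = 0.00505). The difference was smaller in series 27 (-6.13 points) than in series 37 (-24.5 points).

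The Gabbr2 body, averaged over 191 CpGs, was 35.8%, 37.8%, 36.7%, 40.7% and 41.5% in Young STD mice and 22.7%, 30.4% and 39.9% in the lowest, median and highest Aged STD mouse. Again 6 of the 7 Aged STD mice were below the Young STD range (-8.35 points ± 3.16 SE, limma adjusted p = 0.516, exact permutation p = 0.0114), with -8.84 and -8.00 points within the 2 series. The difference was -4.76 points with the composition index as a covariate, and the only Aged STD mouse inside the Young STD range, mouse 5, had the highest index of all.

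Other receptor bodies at an unadjusted p under 0.05 were Gabrd (-19.9 points ± 7.96 SE, adjusted p = 0.535 in limma) and Gabrr3 (-20.3 points ± 8.86 SE, adjusted p = 0.581). Only 3 Aged STD mice had values in Gabrr3, at 48.4%, 93.4% and 75%, and the difference was -8.31 points without Aged STD mouse 1 and -30.8 points without Aged STD mouse 5. Gabrr2, whose body had the highest mean over all 19 mice among bodies with at least 3 CpGs, had 93.0%, 97.1%, 87.7%, 100% and 84.1% in Young STD mice. The 7 Aged STD mice lay between 98.4% and 101%, and the lowest, median and highest Aged ENR mice had 69.9%, 95.9% and 99.0%. It was 7.24 points ± 2.76 SE higher in Aged STD than in Young STD mice (limma adjusted p = 0.516, exact permutation p = 0.00758). Values above 100% come from the centring, and the groups met at that limit. The Aldh5a1 promoter completed the list at -1.48 points ± 0.683 SE (limma adjusted p = 0.581). GABA-A subunit bodies were lower in 4 of 5 genes, with Gabrp the exception at 7.60 points ± 6.06 SE. Gabrp rests on 3 CpGs and spread widely, from 66.7% to 96.7% in Young STD and from 69.1% to 100% in Aged STD mice.

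**Figure D4:**
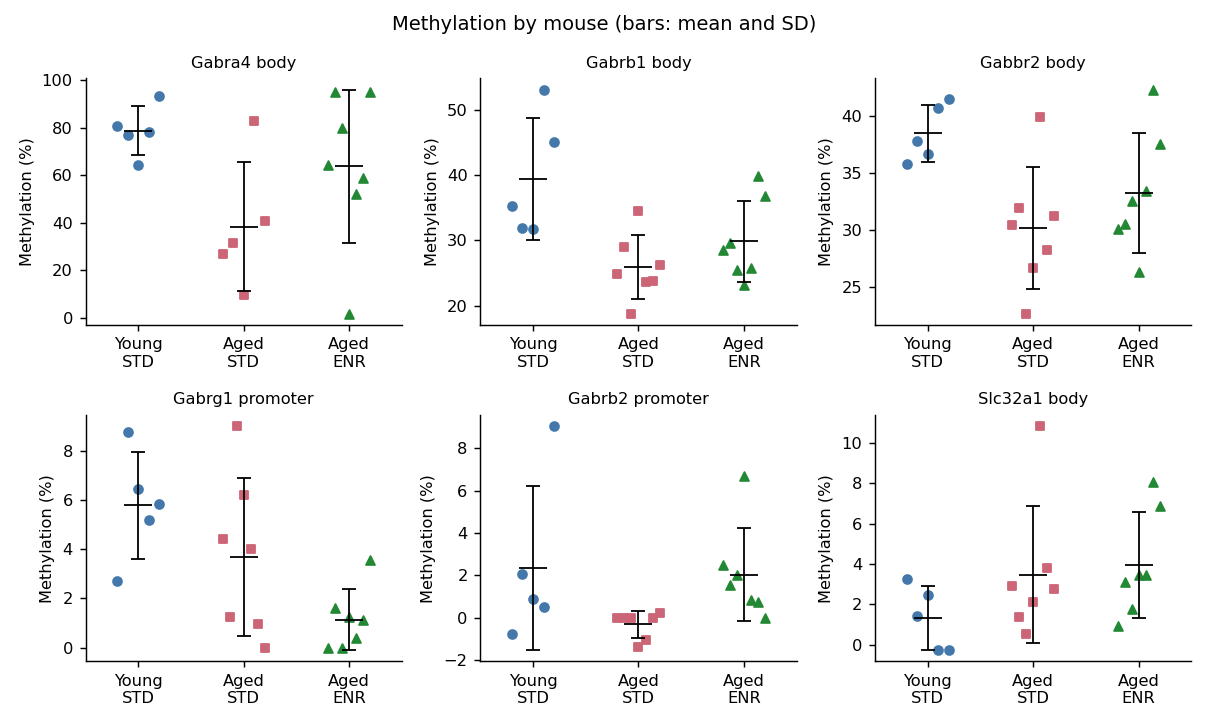
Methylation by mouse (percent, y axis, scaled per panel and not starting at 0) of 6 member regions in the 3 groups (x axis). Points are mice and bars the mean and SD, and Aged STD mice lie mostly below Young STD mice in the Gabra4, Gabrb1 and Gabbr2 bodies with 1 Aged STD mouse inside the Young STD range each.

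The same comparison was made for local clusters. Of 100 member clusters, 0 were called by limma beside 1 of 73564 in the genome (0.00136%), and 9 were lower and 1 higher at an unadjusted p under 0.05, that is 9% and 1%, beside 4.32% and 1.68% over all clusters. Of these 9, 4 lie in Gabbr2, which held 27 body clusters and a promoter cluster among the 100.

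In the Gabra4 intron printed above, 35.5 kb into the gene, Young STD mice had 78.3%, 61.9%, 54.1%, 69.5% and 84.9%. Aged STD mice had 19.8%, 0%, 0%, 74.1% and 32.0%, and 4 of the 5 were below every Young STD mouse. The difference was -44.6 points ± 14.9 SE (limma adjusted p = 0.735, exact permutation p = 0.0317). This cluster forms part of the Gabra4 body and is no separate evidence.

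In the Gabrg3 intron, 23.2 kb into the gene for a gamma subunit, 4 Young STD mice had 12.4%, 49.4%, 67.5% and 40.4%, against a lowest, median and highest value of 0%, 10.6% and 21.3% in 6 Aged STD mice. The groups overlapped through 1 Young STD mouse (-31.6 points ± 10.1 SE, limma adjusted p = 0.722, exact permutation p = 0.0190). The other 4 body clusters of Gabrg3 were at 69.8% to 99.4% in Young STD mice.

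In Gabbr2, the cluster 260 kb into the gene, the largest of the 5 printed with 6 CpGs, had 21.0%, 14.5%, 17.1%, 22.7% and 14.2% in Young STD mice. Aged STD mice had a lowest, median and highest value of 3.83%, 6.61% and 15.1%, and 5 of 7 were below all Young STD mice. The difference was -9.31 points ± 2.90 SE (limma adjusted p = 0.684, exact permutation p = 0.00884), at -8.93 and -9.88 points within series 27 and 37. A further Gabbr2 cluster on chromosome 4 from 46915815 to 46915886, named after its values were seen, had 70.2% in 3 Young STD and 20% in 4 Aged STD mice (-50.3 points ± 19.8 SE, limma adjusted p = 0.811).

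**Figure D5:**
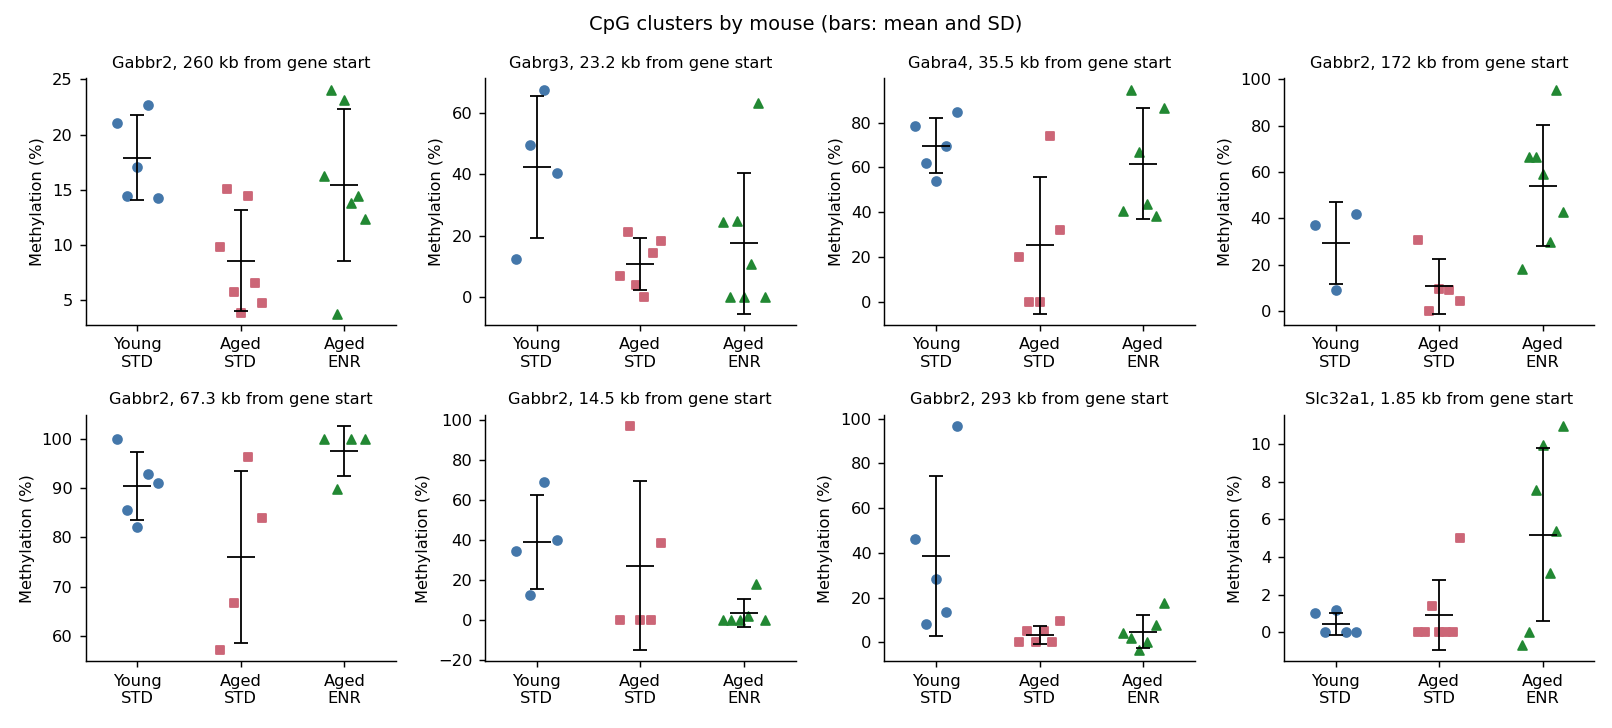
Methylation by mouse (percent, y axis, scaled per panel and not starting at 0) of the 8 printed CpG clusters in the 3 groups (x axis), with bars for the mean and SD. Panel titles give the gene and the distance into it, and mice of one group spread widely, from 0% to 96.6% among Aged STD mice in the Gabbr2 cluster 14.5 kb into the gene.

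At single CpGs, limma called 0 of 684 member CpGs by the rule of adjusted p below 0.05 with more than 25 points of difference, as over the whole table (0%). At an unadjusted p under 0.05, 35 were lower and 8 higher, that is 5.12% and 1.17%, beside 3.33% and 1.09% of all CpGs. Differences over 25 points regardless of p occurred at 57 CpGs downwards and 14 upwards (8.33% and 2.05%), beside 7.19% and 2.17% of all CpGs.

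Of the named CpGs measured in all mice compared, the one at position 46863346 of chromosome 4 in a Gabbr2 intron had 4.35%, 37.5%, 64.3%, 68.3% and 53.3% in Young STD mice. It was 0% in 6 of the 7 Aged STD mice and 7.01% in the other (-44.6 points ± 10.3 SE, limma adjusted p = 0.760, exact permutation p = 0.00253). The 4 Aged ENR mice with values had 0%, 15.3%, 0% and 0% (-41.7 points from Young STD mice ± 15.8 SE, limma adjusted p = 0.776, exact permutation p = 0.0317). At position 46863506 of the same intron, Young STD mice had 31.9%, 16.8%, 22.7%, 2.70% and 34.2%, and the lowest, median and highest Aged STD mice 0%, 0% and 15.4% (-16.4 points ± 5.93 SE, adjusted p = 0.760, exact permutation p = 0.0177). The groups overlapped at both CpGs. A promoter CpG of Gabbr1 on chromosome 17 at 37046791 was 14.0%, 13.7%, 12.0%, 0% and 0% in Young STD mice and 0% in all 7 Aged STD mice (-7.94 points ± 2.66 SE, adjusted p = 0.760, exact permutation p = 0.0455). It was -13.2 points within series 27 and 0 within series 37.

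The effect of housing was addressed by comparing Aged ENR with Aged STD mice. By the study's methods enriched mice shared an enclosure and controls shared cages, so enclosure and housing cannot be told apart. No member region was called by limma (0 of 34, as 0% of all regions), with 2 higher and 0 lower at an unadjusted p under 0.05, beside 3.02% higher and 1.40% lower over all regions. The count of 2 became 1 without Aged STD mouse 1 or 4, or without Aged ENR mouse 1, 3 or 5. Member bodies had a median difference of 3.17 points with 4 of 16 lower, beside 1.40 points and 35.9% lower over all bodies. This median was 1.18 points with the composition index as a covariate and 1.69 and 2.05 points without Aged STD mouse 3 or 6. Marker bodies of other cell types in the tissue were also higher in Aged ENR mice by their medians, at 3.76 points for granule neurons (0 of 4 lower), 7.87 for interneurons (1 of 3), 1.91 for astrocytes (0 of 5, with Gja1 at 42.7), 6.22 for oligodendrocytes (0 of 3), 2.34 for microglia (0 of 2) and 3.56 for endothelium (0 of 3). Their part in the member values was not tested. Member promoters had a median of 0.0512 points, which was -0.0451 points with that covariate.

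The regions of smallest p in limma were promoters that differed by a few points. The Gabrb2 promoter, of a beta subunit, had a lowest, median and highest value of -1.36%, 0% and 0.237% in Aged STD and 0%, 1.54% and 6.67% in Aged ENR mice, and Young STD mice had -0.739%, 2.07%, 0.873%, 0.492% and 9.03%. All but 1 Aged ENR mouse exceeded every Aged STD mouse (2.35 points ± 0.824 SE, limma adjusted p = 0.950, exact permutation p = 0.00350). The difference was 3.53 points in series 27 and 0.780 in series 37, and 1.58 points without Aged ENR mouse 4. Its CpGs form a single cluster, which was therefore also among the 3 clusters of smallest p.

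The Aldh5a1 promoter had -0.235%, 0% and 1.00% as lowest, median and highest in Aged STD and 0%, 1.04% and 2.02% in 6 Aged ENR mice, and Young STD mice had 3.62%, 0.865%, 0.711%, 3.55% and -0.410%. The aged groups overlapped (0.830 points ± 0.374 SE, limma adjusted p = 0.950, exact permutation p = 0.0286). The Gabrg1 promoter, of another gamma subunit, had 0%, 4.02% and 9.02% in Aged STD and 0%, 1.14% and 3.57% in Aged ENR mice as lowest, median and highest. This difference did not pass 0.05 (-2.57 points ± 1.23 SE, limma adjusted p = 0.950, exact permutation p = 0.0693). It was -4.52 points in series 27 and 0.0441 in series 37, and -1.68 points without Aged STD mouse 3. The Gabra4, Gabrb1 and Gabbr2 bodies had 25.5 points ± 16.1 SE, 4.03 ± 3.22 and 3.11 ± 3.17 between the aged groups (exact permutation p = 0.181, 0.200 and 0.293). The Gabra4 value was 37.5 points within series 27 and 6.93 within series 37, and the Gabrb1 value -0.127 and 9.58 points. The Gabbr2 value was 0.597 points with the composition index as a covariate. Single mice weigh on the Gabrb1 and Gabbr2 values. Aged ENR mouse 6 was the highest of its group in these bodies, at 39.8% and 42.3%. Aged STD mouse 3 was the lowest of its group, at 18.8% and 22.7%. The Gabrr2 body was -6.57 points ± 3.91 SE in Aged ENR against Aged STD mice, with 4 of 7 Aged ENR mice below every Aged STD mouse (limma adjusted p = 0.950, exact permutation p = 0.00991), at -10.6 points within series 27 and -1.26 within series 37. Much of it rests on Aged ENR mouse 4 of series 27, at 69.9%, since the other Aged ENR mice lay between 93.7% and 99.0%. The differences between the aged groups share the Aged STD mice with the age comparison.

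Among clusters, 0 of 99 were called by limma (0% of all clusters), and 6 were higher and 0 lower at an unadjusted p under 0.05, that is 6.06% beside 2.31% higher and 1.48% lower over all clusters. Over all 99 the median was -0.139 points with 53 lower, beside 0.194 points over the genome. The largest was the Gabbr2 cluster 172 kb into the gene, where 5 Aged STD mice had 30.6%, 0%, 9.52%, 8.97% and 4.17%. The lowest, median and highest Aged ENR mice had 18.1%, 59.3% and 95.6%, and 5 of the 7 exceeded all Aged STD mice. The difference was 43.4 points ± 13.2 SE (limma adjusted p = 0.927, exact permutation p = 0.00758). The 3 Young STD mice with values had 36.9%, 9.09% and 41.8% there.

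The Gabbr2 cluster 67.3 kb into the gene had 57.1%, 66.7%, 96.3% and 83.9% in 4 Aged STD mice and 100%, 89.9%, 100% and 100% in 4 Aged ENR mice. The groups overlapped (21.5 points ± 8.17 SE, limma adjusted p = 0.927, exact permutation p = 0.0571). The difference was 38.1 points within series 27, on 1 Aged ENR mouse, and 6.53 within series 37, and the 5 Young STD mice had 100%, 85.6%, 82.1%, 92.9% and 91.1%. The Gabra4 intron was 36.4 points ± 16.5 SE higher in Aged ENR mice, with 38.2%, 55.1% and 94.7% as lowest, median and highest of 6 mice (limma adjusted p = 0.927, exact permutation p = 0.0584). It was 60.6 points within series 27 and 2.98 within series 37. The Gabbr2 cluster 260 kb into the gene had 3.81%, 14.4% and 24.1% in Aged ENR mice (6.81 points ± 3.22 SE, limma adjusted p = 0.927, exact permutation p = 0.0548).

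At single CpGs, 0 of 707 were called in limma (0% of all CpGs), and 12 were higher and 3 lower at an unadjusted p under 0.05, that is 1.70% and 0.424%, beside 1.45% and 0.797% of all CpGs. Over 25 points, 37 were higher and 14 lower (5.23% and 1.98%), beside 4.54% and 2.62%. The CpG at 46863506 in Gabbr2 was also among the 3 CpGs of smallest p here, of those measured in every mouse compared, with 6.58%, 28.9% and 42.4% as lowest, median and highest Aged ENR values. Of the 7 Aged ENR mice, 5 exceeded all Aged STD mice (20.9 points ± 6.65 SE, limma adjusted p = 0.769, exact permutation p = 0.00583). A Gad1 intron CpG at 70559197 of chromosome 2 had 0%, 11% and 24.2% in Aged ENR mice and at most 1.92% in Aged STD mice, while 4 Young STD mice had 0%, 3.73%, 10.2% and 0% (10.3 points ± 3.36 SE, adjusted p = 0.769, exact permutation p = 0.0210). A Slc32a1 intron CpG at 158612619 of chromosome 2, within the printed cluster, had 0%, 11% and 31.2% in Aged ENR mice and at most 4.72% in Aged STD mice (10.2 points ± 4.45 SE, adjusted p = 0.769, exact permutation p = 0.0699). Young STD mice had 4% in 1 mouse and 0% in the other 4 there.

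Finally, Aged ENR were set against Young STD mice to ask how far enriched aged mice lay from young ones. No member region was called by limma (0 of 34, as 0% of all regions). At an unadjusted p under 0.05, 1 region was lower and 0 higher, beside 5.26% lower and 1.54% higher over all regions, and the count was 1 to 4 when single mice were left out, reaching 4 without Aged ENR mouse 6. Member bodies had a median difference of -2.37 points with 9 of 16 lower, beside -1.94 points and 67.3% lower over all bodies. It was -3.99 points over CpGs measured in every mouse, -3.29 with the replicate block, -1.35 with the composition index as a covariate and 0.510 points when regions with fewer than 3 CpGs were included, and -0.477 points without Aged ENR mouse 4, -1.02 without Young STD mouse 2, -1.29 without Aged ENR mouse 1 and -1.53 without Young STD mouse 4. Marker bodies had medians of 0.393 points for granule neurons (2 of 4 lower), -1.23 for interneurons (2 of 3), -5.19 for astrocytes (4 of 5), -7.47 for oligodendrocytes (2 of 3), 3.20 for microglia (1 of 2) and -4.95 for endothelium (2 of 3), and their part in the member values was not tested. Member promoters had a median of -0.424 points, beside -0.0376 over all promoters, and -0.0825 points with each mouse shifted to a median of 0. It was -0.860, -0.247 and -0.247 points without Young STD mouse 1, 3 or 4.

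The Gabrg1 promoter had the smallest adjusted p of any member region in any comparison. Young STD mice had 2.71%, 8.78%, 6.45%, 5.19% and 5.84%, and 6 of the 7 Aged ENR mice lay below all of them. The difference was -4.66 points ± 0.957 SE (5.79% ± 2.19 against 1.13% ± 1.24, SD, limma adjusted p = 0.294, exact permutation p = 0.00253), at -5.27 and -3.81 points within series 27 and 37 and -4.70 points with the composition index as a covariate. Its 11 CpGs lie on chromosome 5 around the start of the gene (70751047 to 70842617, minus strand). They did not differ alike. As means over CpGs, the 4 from 70842333 to 70842388 had 0% in Young STD and 0.630% in Aged ENR mice. The 4 from 70842939 to 70842993 had 3.65% and 1.15%. Most of the difference thus came from the few promoter CpGs outside these 2 clusters.

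The Gabrb1 body had 23.2%, 28.6% and 39.8% as lowest, median and highest Aged ENR values, and every Young STD mouse exceeded 5 of the 7 (-9.52 points ± 4.47 SE, limma adjusted p = 0.736, exact permutation p = 0.0568). Without Young STD mouse 4 this difference was -6.09 points. The Slc32a1 body had 3.25%, 1.39%, 2.47%, -0.282% and -0.271% in Young STD mice. Its lowest, median and highest values were 0.518%, 2.78% and 10.8% in Aged STD and 0.904%, 3.45% and 8.08% in Aged ENR mice, and 4 of 7 Aged ENR mice exceeded all Young STD mice. The difference was 2.63 points ± 1.24 SE (limma adjusted p = 0.738, exact permutation p = 0.0745), and it was -0.0752 points within series 27 but 6.42 within series 37.

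Clusters gave 0 of 100 calls in limma (0% of all clusters), with 4 lower and 1 higher at an unadjusted p under 0.05 (4% and 1%), beside 3.41% and 2.07% over all clusters. The Gabbr2 cluster 14.5 kb into the gene had 34.4%, 12.1%, 68.9% and 39.7% in 4 Young STD mice and 0%, 0% and 17.8% as lowest, median and highest of 6 Aged ENR mice. Of these, 5 were below all Young STD mice (-35.5 points ± 9.18 SE, limma adjusted p = 0.743, exact permutation p = 0.00952). Aged STD mice were spread from 0% in 3 mice to 38.1% and 96.6%.

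The Gabbr2 cluster 293 kb into the gene had 46.1%, 8.06%, 28.3%, 13.8% and 96.5% in Young STD mice, and -3.45%, 3.12% and 17.6% as lowest, median and highest of 6 Aged ENR mice (-33.9 points ± 13.4 SE, limma adjusted p = 0.878, exact permutation p = 0.00866). It was -19.4 points without Young STD mouse 5. The 6 Aged STD mice with values lay between 0% and 9.63% (-35.2 points ± 13.1 SE, limma adjusted p = 0.768, exact permutation p = 0.00433). This difference also rests in part on Young STD mouse 5, at 96.5%.

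The Slc32a1 cluster 1.85 kb into the gene had 1.00%, 0%, 1.19%, 0% and 0% in Young STD mice. Aged ENR mice had -0.688%, 5.36% and 10.9% as lowest, median and highest, and 5 of the 7 were above all Young STD mice (4.74 points ± 1.94 SE, limma adjusted p = 0.883, exact permutation p = 0.0492). Aged STD mice were at 0% in 5 mice, 1.42% and 5%. The other 3 body clusters of Slc32a1 had means of 0.760% to 4.38% in Young STD mice.

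Of single CpGs, 0 of 703 were called in limma (0% of all CpGs), with 26 lower and 7 higher at an unadjusted p under 0.05 (3.70% and 0.996%), beside 2.55% and 1.40% of all CpGs. Over 25 points, 36 were lower and 12 higher (5.12% and 1.71%), beside 5.21% and 2.39%. A coding-exon CpG of Gad1 at 70587649 of chromosome 2 separated the groups without overlap, 1 of 150 member CpGs measured in all mice compared that did so, beside 0.323% of 97745 such CpGs in the genome. Young STD mice had 25.7%, 45.8%, 17.1%, 57.1% and 15.3% there, while Aged ENR mice had 0% in 6 mice and 13.1% in the other (-30.3 points ± 7.46 SE, limma adjusted p = 0.776, exact permutation p = 0.00126). Aged STD mice were at 0% in 5 mice, 72.9% and 100%.

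A Gphn promoter CpG at 78227512 of chromosome 12 had 10%, 4.76%, 25.9%, 20% and 0% in Young STD mice and at most 4% in Aged ENR mice (-11.6 points ± 3.89 SE, limma adjusted p = 0.776, exact permutation p = 0.0101). A Gabbr2 intron CpG at 46929053 of chromosome 4 had 54.5%, 63.3%, 24.0%, 0% and 14.3% in Young STD mice, 0% in 5 Aged STD mice and at most 14.7% in Aged ENR mice (-29.1 points ± 9.87 SE, limma adjusted p = 0.776, exact permutation p = 0.0189). The difference was -47.3 points in series 27 and -2.24 points in series 37.

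Partners of these genes were described from a list of 21 genes of inhibitory synapses, chloride and glutamine carriers and interneuron regulators. Of the 20 promoters and 17 bodies tested, 0 were called by limma in any comparison. In Aged STD against Young STD mice, 2 of 17 bodies had an unadjusted p under 0.05, both lower, where 1235 of all 9997 bodies did. The median over the 17 was -2.05 points with 12 lower, beside -3.84 points and 75.4% lower over all bodies. The body of smallest p was that of Trak1, which encodes a trafficking adaptor (30.7% in Young STD, 23.6% in Aged STD mice, a difference of -7.09 points ± 3.15 SE, adjusted p = 0.570 in limma).

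Markers of the cell types in the tissue were also read as methylation, since the table holds no expression and cannot show whether the defining genes were transcribed. Across the lists for granule neurons, interneurons, astrocytes, oligodendrocytes, microglia and endothelium, 0 regions were called. In Aged STD against Young STD mice the marker bodies with the median furthest down were those of oligodendrocytes (-8.93 points, 3 of 3 lower), and granule neuron bodies had -5.78 points (3 of 4 lower), interneuron bodies -5.75 points (3 of 3 lower), astrocyte bodies -5.82 points (5 of 5 lower, with Gja1, a gap junction gene, at -49.0 points and a limma adjusted p of 0.320), endothelial bodies -7.59 points (3 of 3 lower) and microglial bodies 0.862 points (1 of 2 lower). The part of cell composition in the member values was not tested.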

How the data were processed

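RRBS was made by the authors from dentate gyrus of single mice and read as single-end reads. Per the labels, reads were trimmed with Trim Galore 0.4.0 and cutadapt 1.8.1, aligned with Bismark 0.16.1 to mm10 and processed with methylKit 1.5.2, and the study's methods name later releases of Trim Galore and Bismark. Cytosines read fewer than 10 times were dropped by the authors, who also removed extreme coverage and required 3 mice per group. The deposited values are the percent of methylated reads per cytosine and mouse, without read numbers, so depth is unknown and no interval is given for a single value. The number of columns matching no sample was 0. Young ENR mice and cytosines outside CpG were not analysed here.

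Of 762182 cytosines, 762137 lay in a CpG of an assembled GRCm38 chromosome. For each mouse, a region was given the average, taken over its measured CpGs, of the deviation from the mean of that CpG over all mice, plus the mean of those means. Regions with at least 3 CpGs and 3 mice per group were tested with limma 3.58.1 (percent scale, trended variance, two-sided), with Benjamini-Hochberg adjustment over all regions, clusters or CpGs of the genome. The study used the chi-squared test of methylKit on reads, which percentages do not allow. Exact permutation tests were two-sided on the difference of means, with 792 labellings for 5 against 7 mice and 3432 for 7 against 7, and fewer where mice lacked a value. Their p-values are unadjusted and belong to features picked for a small p. Mice were caged together by group according to the study's methods, and litters are not given, so p-values measure the spread between mice only.

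Members and lists were chosen with earlier results of these data known. Named with values by mouse were the 3 regions, 3 clusters and 3 fully measured CpGs of smallest p in each comparison and the lowest and highest promoter and body. The design assumed that Young ENR mice might also be present. The code was tested on simulated data. R 4.3.3, Python 3.11.15, numpy 2.4.6, pandas 2.3.3 and matplotlib 3.10.9 were used. Sequences came from GRCm38.p6. A result for a promoter of the partner list is not reported here.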

Additional observations from a re-analysis of the deposited data

Results flagged for a closer look

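Single mice stood apart from the rest of their group in 15 of the 101 combinations of member region and group that held 4 to 10 mice, by Dixon's test at the 95% level. For normally distributed values it flags about 1 in 20 by chance. Many of these regions lie near 0% or 100%, where that rate need not hold. The promoter shared by Gabra4 and Gabrb1 is counted under both genes. In Aged ENR mouse 4 the Abat promoter was at 3.91%, against -0.227% to 0.881% in the other 6 mice of its group. In Aged ENR mouse 6 the Gabarapl1 promoter was at 3.71%, against 0% to 0.869% in the other 6 mice of its group. In Young STD mouse 4 the Gabarapl2 promoter was at 2.39%, against 0.533% to 0.875% in the other 4 mice of its group. In Aged STD mouse 3 the Gabarapl2 promoter was at 1.51%, against 0.196% to 0.647% in the other 6 mice of its group. In Young STD mouse 5 the Gabbr2 promoter was at 63.8%, against 89.4% to 96.4% in the other 4 mice of its group. In Young STD mouse 5 the Gabra2 promoter was at 5.12%, against 1.03% to 2.11% in the other 4 mice of its group. In Young STD mouse 5 the Gabrb2 promoter was at 9.03%, against -0.739% to 2.07% in the other 4 mice of its group. In Aged ENR mouse 4 the Gabrb2 promoter was at 6.67%, against 0% to 2.5% in the other 6 mice of its group. In Aged STD mouse 5 the Gabrg3 promoter was at 6.29%, against -0.477% to 2.37% in the other 6 mice of its group. In Aged ENR mouse 6 the Gabrp body was at 36.8%, against 82.6% to 93.5% in the other 5 mice of its group. In Aged ENR mouse 4 the Gabrr2 body was at 69.9%, against 93.7% to 99.0% in the other 6 mice of its group. In Aged ENR mouse 2 the Gabrr3 body was at 71.0%, against 93.3% to 100% in the other 4 mice of its group. In Aged STD mouse 5 the Gad1 promoter was at 10.1%, against 0.982% to 4.58% in the other 6 mice of its group. In Aged STD mouse 6 the Gphn body was at 58.3%, against 87.7% to 99.7% in the other 5 mice of its group. In Aged STD mouse 5 the Slc32a1 body was at 10.8%, against 0.518% to 3.79% in the other 6 mice of its group. These deviations are given as values, and their causes were not tested. Aged STD mouse 5 and Aged ENR mouse 6 had the highest composition indices of their groups (38.0% and 36.2%), and Aged ENR mouse 4 the lowest of its group (23.4%).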

How the results depend on the processing

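The 3 regions, 3 clusters and 3 CpGs named in each comparison kept their sign under the refits and omissions of single mice, and none of them passed the threshold. Within 1 library series, 2 of them had the other sign in a comparison they were named for, the Slc32a1 body in Aged ENR against Young STD mice (-0.0752 points in series 27) and the Gabrg1 promoter in Aged ENR against Aged STD mice (0.0441 in series 37). The number of called members stayed at 0 for regions and clusters under every alternative and for CpGs in Aged STD against Young STD and Aged ENR against Aged STD mice. In Aged ENR against Young STD mice, a fit without the variance trend called 1 member CpG, at 46977415 of chromosome 4 in Gabbr2 (-39.3 points, adjusted p = 0.0264), where all 6 Aged ENR mice were at 0% and so showed no spread.

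The median difference over member CpGs changed with the fit and with single mice left out. In Aged STD against Young STD mice it was -1.24 points, -0.686 with each mouse shifted to a median of 0, -0.651 for CpGs measured in every mouse compared, and -1.91 to -0.752 with a mouse left out. In Aged ENR against Aged STD mice it was 0.420, -0.110 with the composition index as a covariate, and 0.241 to 1.01 with a mouse left out. In Aged ENR against Young STD mice it was -0.851, -1.24 with the replicate block, -0.312 for CpGs measured in every mouse compared and -1.25 to -0.291 with a mouse left out. Medians over members changed sign in 12 alternatives, all in Aged ENR against Aged STD mice (promoters, clusters and CpGs, whose medians lay near 0) except the body median of Aged ENR against Young STD mice with regions of fewer than 3 CpGs, at 0.510 points. The cause was not tested. The excess of body over promoter was 36.6 points in Young STD, 33.0 in Aged STD and 32.1 in Aged ENR mice over CpGs measured in every mouse and 39.1, 32.2 and 35.1 points with promoters of 500 bases.

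Same-numbered mice did not deviate together (correlations of -0.199 to 0.114, 1 of 17 pairs over 0.1), so numbers were not taken as pairs. With the replicate block, 4 in place of 7 member regions had an unadjusted p under 0.05 in Aged STD against Young STD mice, 4 in place of 10 clusters and 18 in place of 43 CpGs, and in Aged ENR against Young STD mice 4 in place of 1 region and 13 in place of 33 CpGs. The composition index as a covariate also gave 4 regions, and CpGs measured in every mouse 2 regions, 2 clusters and 10 CpGs. In Aged ENR against Aged STD mice the covariate gave 4 in place of 2 regions and 29 in place of 15 CpGs, and fully measured CpGs numbered 2, and 7 in Aged ENR against Young STD mice. Over CpGs measured in every mouse, these comparisons gave 1 cluster each in place of 6 and 5, and the second gave 3 with the covariate. At an unadjusted p under 0.05, Aged ENR against Young STD mice gave 11 clusters in place of 5 without Aged ENR mouse 6 and 8 without Young STD mouse 3, and Aged ENR against Aged STD mice gave 3 in place of 6 without Aged ENR mouse 7. For CpGs in Aged STD against Young STD mice the count was 26 without Young STD mouse 2 and 28 without mouse 3. Depth per value is unknown, and partial methylation at single CpGs is read coarsely.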
